A study of Sus scrofa with 207 samples.

Results

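Ubiquitin conjugating enzymes, called E2 enzymes, and deubiquitinases were followed in muscle of 207 crossbred pigs. The members were the genes of the array annotation whose symbol starts with UBE2, USP, UCHL or OTU and stands alone on a probe set, without USP9X and USP18. That gave 43 genes of the 6765 with such a probe set on the Affymetrix porcine array, namely 24 E2 enzymes and 19 deubiquitinases, and of their 68 probe sets the brightest on average stood for each gene. All animals formed 1 group of commercial pigs from a cross that the labels give as Pix(DLxDE), slaughtered at a mean weight of 110 kg, with no treatment given. The labels hold 2 traits of the longissimus muscle for each animal. Drip loss is fluid lost from a piece of meat that hangs in the cold, as a percentage of its weight, and it had a mean of 5.37% and an SD of 2.22 over all 207 pigs (range 1.45 to 10.82%). The mean fat area over the muscle was 15.0 cm2 with an SD of 3.15 (range 8.1 to 26.7 cm2), and 8 animals lacked this label, so every fat area result leaves them out.

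Ubiquitin is a small protein that cells attach to other proteins through a relay of enzymes. An E1 enzyme activates it, an E2 enzyme carries it as a thioester, and an E3 ligase brings the E2 enzyme to the protein to be marked. The E2 enzyme often decides which kind of chain is built, and so whether the marked protein goes to the proteasome or is steered elsewhere. Deubiquitinases of the USP, UCH and OTU families cut the marks off again, trim chains and recycle free ubiquitin. In skeletal muscle this system removes myofibrillar and regulatory proteins and is known above all for its part in muscle wasting.

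The values were the authors' log2 expression values, 1 array per animal, and a value can be compared between animals for the same gene but not between genes. Array medians lay between 5.96 and 6.18, and precision is set by the number of animals. A set of 24 arrays resembled the rest less: the lowest of their median correlations was 0.944, where 0.978 was typical, and they are called low-correlation arrays here. Mean drip loss was 4.20% (SD 1.55) in those 24 animals and 5.53% (SD 2.25) in the others. The numbers in the sample titles form a lower series and a higher series, the latter of 33 animals, and blocks of 100 numbers held 8.78% of the variance of drip loss and 6.98% of that of fat area. What the numbers stand for is not given in the sources used here. Of 12 skeletal muscle markers 9 were measured, among them TTN, MYH2, CKM and DES, and the mean of each lay at or above the 99.2th percentile of all probe sets. Among 42 measured markers of muscle and other cell types limma called 2 for drip loss, beside 6.08% of all genes called, the endothelial ENG (-0.068 in log2 units per SD of drip loss, adjusted p = 0.047) and the lymphocyte gene CCL5 (0.076, adjusted p = 0.050, just under the threshold); their part in the results below was not tested.

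Levels of different probe sets cannot be ranked as amounts of RNA, so the place of a member on the scale only describes its signal. The means of 38 members, 22 E2 enzymes and 16 deubiquitinases, exceeded the median of all probe set means (6.10), with OTULIN and USP16 barely above it, and no member sat at the floor of the scale (4 in log2 units) on any array. The members below it were UBE2C, the E2 enzyme of the anaphase promoting complex in mitosis, UBE2W, which marks the amino end of proteins, the mitochondrial deubiquitinase USP30, the nucleolar USP36 and the endosomal USP8. Across animals the members varied about as much as other genes, with a median SD of 0.238 against 0.248 for all genes.

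A few members varied far more than that. UCHL1, a small deubiquitinase best known from neurons, had an SD of 0.587 and ran from 6.53 over a median of 8.28 to 10.52, with the next highest animal at 10.01. UBE2C had an SD of 0.542 and ran from 4.72 over a median of 5.84 to 8.43, and the next highest animal stood at 8.30, so that a few animals lay far above the rest. UBE2O, a large enzyme that acts as E2 and E3 in protein quality control, had an SD of 0.431 around a median of 8.78. USP2, a deubiquitinase whose transcript follows the body clock in many tissues, had an SD of 0.417 and ran from 9.45 over 10.44 to 12.01. USP21, a deubiquitinase of histone H2A, owed its SD of 0.356 in part to 1 animal at 5.94, since the next lowest stood at 8.07 and the median was 9.03. UBE2T, the E2 enzyme of the Fanconi anemia DNA repair pathway, varied least, with an SD of 0.131 between 6.31 and 7.11. Nearly all members spread more on the 24 low-correlation arrays, which were picked for resembling the rest less, than on the others. Members with a smaller SD did so too, with 0.374 against 0.139 for UBE2D2 and 0.430 against 0.178 for USP11. Only OTULIN went the other way (0.181 against 0.199). For the widely varying members the SDs were 0.756 against 0.266 for USP21, 0.700 against 0.349 for USP2 and 0.915 against 0.471 for UBE2C. For UCHL1 they were 0.746 and 0.563, and for UBE2O 0.516 and 0.416. The part of array quality in these spreads was not tested.

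Does the level of these enzymes go with the water that meat loses? Each gene was regressed on drip loss scaled to SD 1, so that a slope is the change in log2 units per SD of drip loss, and p-values were adjusted over all 23935 probe sets. At an adjusted p under 0.05, 4 of the 43 members were called. UBE2M, UCHL1 and USP5 were higher in pigs with more drip loss, and USP28 was lower. That is 9.30% of the members, against 6.08% of all 6765 genes and 4.61% of all probe sets (3.96% of genes were called higher and 2.11% lower). By family, 1 of 24 E2 enzymes and 3 of 19 deubiquitinases were called. Among E2 enzymes 15 slopes were positive and 9 negative with a median of 0.0062, and among deubiquitinases 9 were positive and 10 negative with a median of -0.0027, beside a median of 0.0080 over all genes. At an unadjusted p under 0.05 there were 4 E2 enzymes and 7 deubiquitinases, or 25.6% of the members, against 23.9% of all genes.

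**Figure D1:**
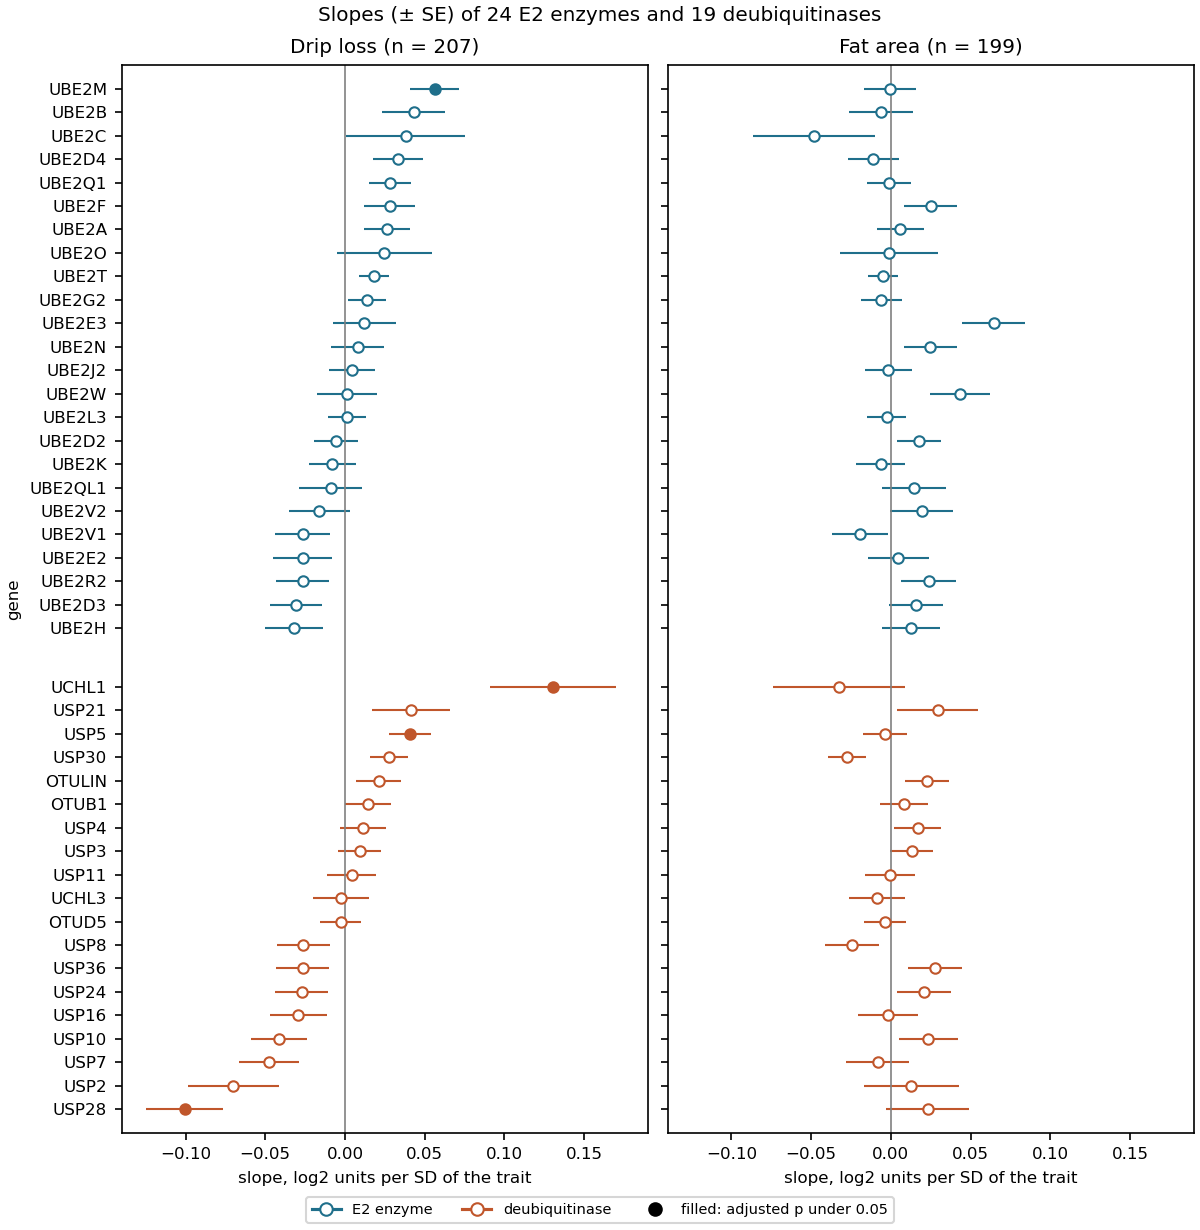
Slopes of the 24 E2 enzymes (upper block) and 19 deubiquitinases (lower block) in log2 units per SD of drip loss (left) and fat area (right), with bars of 1 SE, ordered by the drip loss slope. Filled points passed an adjusted p under 0.05: UBE2M, UCHL1, USP5 and USP28 for drip loss and none for fat area, where the slopes ran from -0.048 (UBE2C) to 0.064 (UBE2E3).

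USP28, a deubiquitinase that protects MYC from degradation and takes part in the DNA damage response, had the smallest p of the family. Its values ran from 10.42 over a median of 11.14 to 12.29. The animals were ranked by drip loss and cut into 4 bins of near equal size. In the lowest bin (1.45 to 3.58%) the mean was 11.31 ± 0.413 (SD, n = 52), and in the highest (7.22 to 10.82%) it was 11.08 ± 0.303 (SD, n = 52). The bins between had means of 11.27 ± 0.363 (SD, n = 52) and 11.07 ± 0.311 (SD, n = 51), so the upper pair of bins stood alike. The bins overlapped widely, and the highest bin reached 11.70. Most animals of the lowest bin above 11.70 had low-correlation arrays, among them the one at 12.29. The fitted slope was -0.10 with an SE of 0.024 (limma adjusted p = 0.0073), which is a change of -6.73% for each SD of drip loss. In RNA of whole tissue, fewer cells of a type that holds a transcript and less transcript per cell cannot be told apart.

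The USP28 slope was not called in several settings. With the number blocks in the fit its slope was -0.076 (limma adjusted p = 0.113), and without the 24 low-correlation arrays it was -0.073 (adjusted p = 0.101). USP28 stood at 11.43 ± 0.509 (SD, n = 24) on those arrays and at 11.15 ± 0.329 (SD) on the others. The slope was -0.092 in the lower number series (adjusted p = 0.061) and -0.12 in the higher (adjusted p = 0.635, n = 33). With the first 5 principal components of all probe sets in the fit it was 0.0015 (adjusted p = 0.992). The part of array quality and of the number blocks in this result was not tested.

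UBE2M, the E2 enzyme that carries the ubiquitin-like NEDD8 to the cullin scaffolds of E3 ligases, was the only E2 enzyme called. Its values ran from 7.73 over a median of 8.87 to 9.62, with the next lowest animal at 8.25. The means of the bins, from the least to the most drip loss, were 8.77, 8.78, 8.92 and 8.87, each with an SD between 0.191 and 0.252. UBE2M thus stood higher in the upper pair of bins, with wide overlap. It rose by 0.056 ± 0.015 (SE) for each SD of drip loss, or 3.98% (limma adjusted p = 0.016, 207 animals). UBE2F, the other E2 enzyme for NEDD8, which serves CUL5, had a slope of 0.028 ± 0.016 (adjusted p = 0.330) and correlated with UBE2M at r = 0.541 over the animals.

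UBE2M also moved with a control measure of the arrays. Its level correlated with how far the 3' signal of control transcripts exceeded their 5' signal, which depends on how intact the RNA or its labelled copy is, at r = -0.534 (rho = -0.478, both permutation p = 1e-05, the smallest that 100000 permutations can give, adjusted p = 4e-05 over 12 such relations). Without the 2 most extreme arrays r was -0.470, and within the lower and higher number series it was -0.606 and -0.499. Drip loss itself correlated with that difference at r = -0.144 (permutation p = 0.040, adjusted p = 0.060; rho = -0.117, adjusted p = 0.122; -0.137 without the 2 most extreme arrays; -0.144 and 0.0085 within the series). With the difference in the fit the slope of UBE2M was 0.040 (limma adjusted p = 0.078). It was 0.054 with number blocks (adjusted p = 0.068), 0.041 without the low-correlation arrays (adjusted p = 0.107), 0.039 with both (adjusted p = 0.203), 0.024 with 5 principal components (adjusted p = 0.656), 0.062 in the lower series (adjusted p = 0.047) and 0.055 in the higher (adjusted p = 0.743).

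UCHL1 had the largest slope of all members. It hydrolyses small adducts at the end of ubiquitin and keeps free ubiquitin available, and it is made in abundance by neurons and neuroendocrine cells. The bin means ran from 8.02 ± 0.570 (SD, n = 52) at the least drip loss over 8.14 ± 0.531 (n = 52) and 8.33 ± 0.654 (n = 51) to 8.38 ± 0.530 (SD, n = 52) at the most. The ranges overlapped, from 6.53 to 10.01 in the lowest bin and from 7.07 to 9.63 in the highest. The slope was 0.13 ± 0.040 per SD (SE, limma adjusted p = 0.034, 207 animals), a rise of 9.46%. UCHL3, the other UCHL gene among the members, also processes NEDD8. It had a slope of -0.0027 ± 0.018 (adjusted p = 0.956), and UCHL1 and UCHL3 correlated at r = 0.10 (adjusted p = 0.216).

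The UCHL1 slope was positive in all 17 alternatives, between 0.11 and 0.26, and passed in 11. UCHL1 has 1 probe set, so some of these alternatives could not change its slope. They were another probe set per gene, dim probe sets left out, adjustment over 1 probe set per gene and trend and robust variances. The slope was 0.13 with number blocks (limma adjusted p = 0.090), 0.12 without the low-correlation arrays (adjusted p = 0.128), 0.11 with 5 principal components (adjusted p = 0.442), 0.13 in the lower series (adjusted p = 0.107) and 0.26 in the higher (adjusted p = 0.529). UCHL1 showed r = 0.017 with the 3' to 5' difference and r = -0.052 with the median correlation of the array (permutation p = 0.812 and 0.458; rho = 0.021 and 0.018). The other called members did correlate with that median correlation, USP28 at r = -0.297 (rho = -0.194), UBE2M at 0.345 (rho = 0.233) and USP5 at 0.265 (rho = 0.165), with permutation p adjusted over 12 relations of 8e-05, 8e-05 and 0.00038 for r. Without the 2 most extreme arrays these were -0.304, 0.320 and 0.246, and within the lower and higher series -0.249 and -0.619 for USP28, 0.368 and 0.239 for UBE2M, and 0.263 and 0.276 for USP5. For the nerve markers r was 0.074 with S100B, 0.025 with SOX10, -0.066 with NEFL and -0.062 with GFAP, and none passed after adjustment over 42 markers of muscle and other cell types (smallest permutation p = 0.293). For drip loss, 0 of these 4 nerve markers were called by limma, and 2 had an unadjusted p under 0.05.

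Of the 42 markers, 6 passed with UCHL1 by Pearson's r and 1 by Spearman's rho. They came from different cell types, and of the 9 muscle markers only DES and MYL1 passed, while MYH7, TPM2 and MYH2 had an r of -0.046, -0.029 and -0.00050. The one that passed by both was DES, the intermediate filament desmin of muscle, at r = 0.250 (permutation p = 0.00029, adjusted p = 0.0041) and rho = 0.256 (adjusted p = 0.0063), with 0.244 without the 2 most extreme animals, 0.238 and 0.226 within the series and 0.215 without the low-correlation arrays. MYL1, a myosin light chain of fast fibres, reached r = 0.256 (adjusted p = 0.0041) and rho = 0.205 (adjusted p = 0.071). AIF1, a macrophage marker, reached r = 0.264 (adjusted p = 0.0041) and rho = 0.179 (adjusted p = 0.140), but r was 0.077 without the low-correlation arrays. The others were the macrophage marker CD163 (r = 0.233, 0.075 without those arrays), the endothelial TEK (0.214 and 0.159) and, with a negative sign, the lymphocyte marker CD4 (-0.226 and -0.240), with adjusted p between 0.0074 and 0.013 for r and between 0.163 and 0.297 for rho.

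USP5, which takes unanchored ubiquitin chains apart, passed most narrowly. Its values ran from 7.91 over a median of 8.68 to 9.13, and the bin means were 8.61 ± 0.20, 8.62 ± 0.193, 8.73 ± 0.180 and 8.69 ± 0.167 (SD) from the least to the most drip loss. As for UBE2M, the upper pair of bins was higher than the lower pair. The slope was 0.041 with an SE of 0.013 (limma adjusted p = 0.048), or 2.86% per SD. It did not pass with number blocks (0.042, adjusted p = 0.119), without the low-correlation arrays (0.033, adjusted p = 0.178), with the 3' to 5' difference (0.033, adjusted p = 0.154), in either number series (adjusted p = 0.090 and 0.917), with 5 principal components (0.020, adjusted p = 0.741), with number blocks and low-correlation arrays left out together (0.034, adjusted p = 0.254) or with fat area, normal scores or robust variances (adjusted p between 0.050 and 0.054). USP5 correlated with the 3' to 5' difference at r = -0.320 (rho = -0.296, permutation p = 1e-05 and 3e-05; -0.302 without the 2 most extreme arrays; -0.386 and 0.043 within the series).

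**Figure D2:**
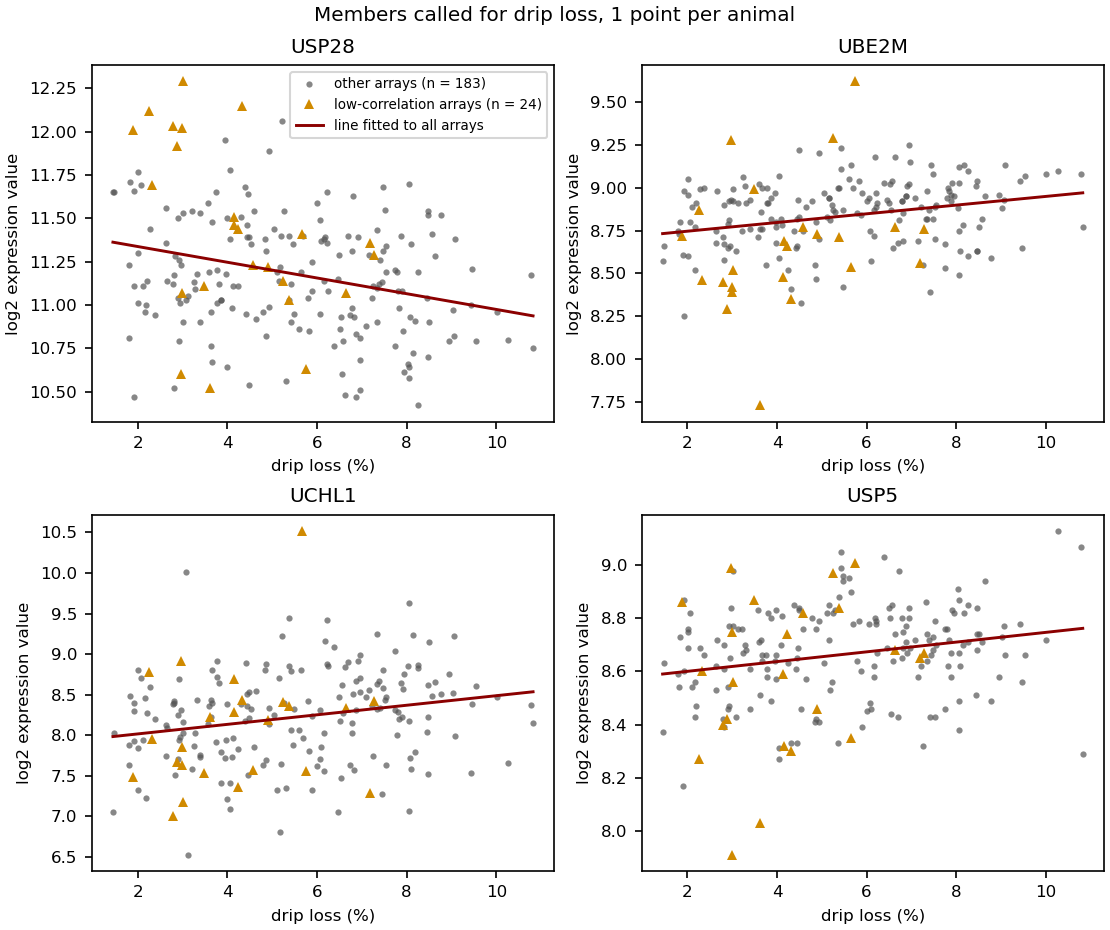
Log2 expression (vertical axis) against drip loss in percent (horizontal axis) for USP28, UBE2M, UCHL1 and USP5, 1 point per animal with the line fitted to all 207. Triangles are the 24 low-correlation arrays, many of which lie at low drip loss; there USP28 averaged 11.43 and UBE2M 8.67, against 11.15 and 8.85 on the other arrays.

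With number blocks, without the low-correlation arrays, with 5 principal components or in the higher number series alone, limma called 0 of 43 members for drip loss, and 5, 7, 5 and 4 members had an unadjusted p under 0.05. Far fewer genes of any kind were called there. The count over all 6765 genes was 411 at first, 56 with number blocks, 88 without the low-correlation arrays, 8 with 5 principal components and 0 in the higher series. In the lower series 1.15% of genes were called, and with the 3' to 5' difference in the fit 3.19%. The direction of the slope was the same in both number series for 26 of 43 members.

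**Figure D3:**
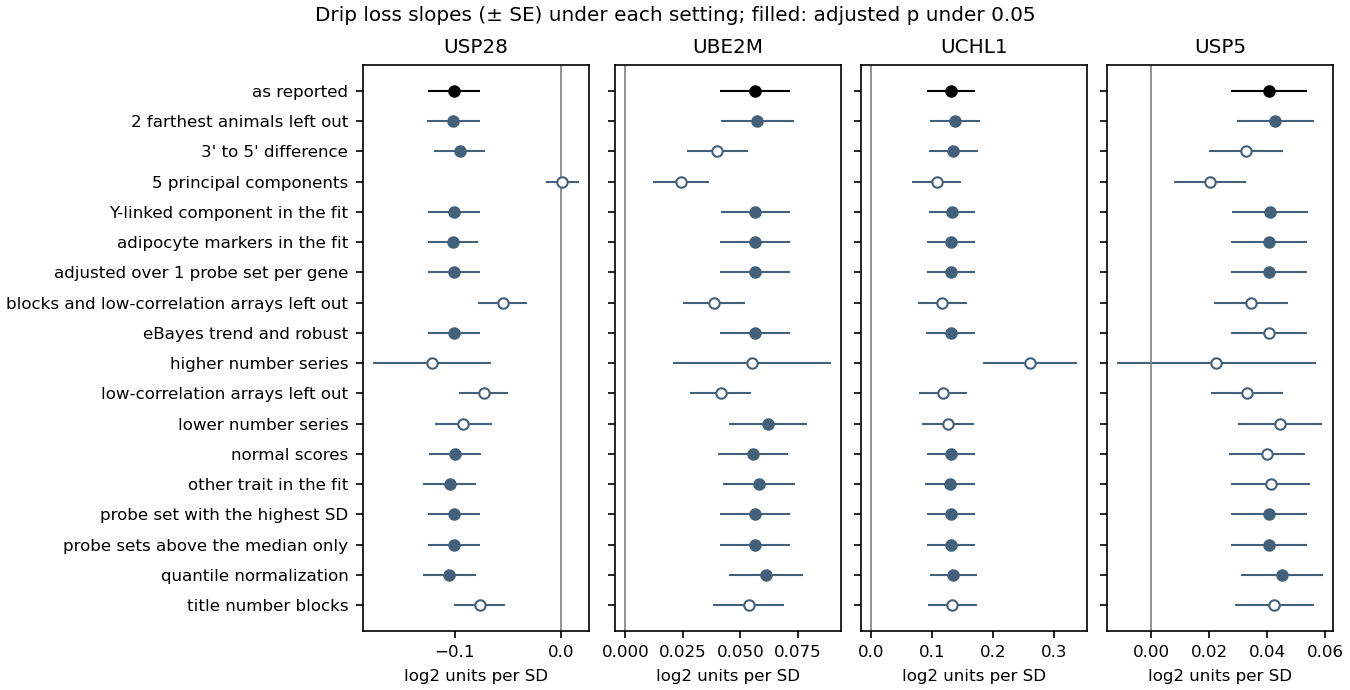
Drip loss slopes with bars of 1 SE for the 4 members that passed, in log2 units per SD, under each setting (rows); filled points have an adjusted p under 0.05. UBE2M, UCHL1 and USP5 stayed above 0 in every setting shown, while USP28 lay at 0.0015 with 5 principal components.

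None of the other E2 enzymes passed for drip loss. UBE2B and UBE2A, the mammalian RAD6 proteins that mark histone H2B and act in DNA repair, had slopes of 0.043 ± 0.019 (limma adjusted p = 0.194) and 0.026 ± 0.014 (adjusted p = 0.297). UBE2T, the E2 enzyme of the Fanconi anemia DNA repair pathway, had a slope of 0.018 ± 0.0093 (adjusted p = 0.274). The broadly used UBE2D enzymes, which start chains with many E3 ligases, pointed both ways, with 0.033 for UBE2D4, -0.0056 for UBE2D2 and -0.031 for UBE2D3 (adjusted p = 0.206, 0.873 and 0.296). UBE2N, which builds chains through lysine 63 of ubiquitin together with the inactive partners UBE2V1 and UBE2V2, had a slope of 0.0080, and the partners had -0.027 and -0.016 (adjusted p between 0.409 and 0.846). The chain builders UBE2K and UBE2R2 and the endoplasmic reticulum enzymes UBE2G2 and UBE2J2 lay between -0.027 and 0.014, and UBE2L3, which serves HECT and RING-between-RING ligases, at 0.0013. The slope of UBE2C was 0.038 ± 0.037 (adjusted p = 0.626) beside its wide spread across animals.

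Of the deubiquitinases that were not called, the largest negative slopes belonged to USP2, USP7 and USP10. USP2 had -0.070 ± 0.028 (limma adjusted p = 0.137), USP7, which stabilises MDM2 and p53, -0.048 ± 0.019 (adjusted p = 0.122), and USP10, which stabilises p53 outside the nucleus, -0.042 ± 0.018 (adjusted p = 0.157). All 3 stood higher on the low-correlation arrays, at 10.80 against 10.45 for USP2, 10.00 against 9.67 for USP7 and 10.03 against 9.79 for USP10. Without those arrays and with number blocks together, the slopes were -0.017, 0.0041 and -0.0056. USP30, which opposes the removal of damaged mitochondria, had a slope of 0.028 ± 0.012 (adjusted p = 0.162). OTULIN, the enzyme for linear chains, OTUB1, which also blocks E2 enzymes such as UBE2N without cutting, and OTUD5 had slopes of 0.021, 0.014 and -0.0028 (adjusted p between 0.416 and 0.939). USP3, USP4, USP8, USP11, USP16, USP21, USP24 and USP36 lay between -0.029 and 0.041.

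Of the 43 genes 18 had more than 1 probe set, and the further 25 probe sets correlated with the chosen one at r between -0.083 and 0.968 (median 0.396, n = 207). For drip loss 2 of the 25 were called, beside 4.61% of all probe sets. The second probe set of USP10 ran from 8.32 over 8.84 to 10.09, correlated with the chosen one at r = 0.569 and fell by 0.084 ± 0.019 per SD (SE, limma adjusted p = 0.0050). With number blocks its slope was -0.059 (adjusted p = 0.132) and without the low-correlation arrays -0.052 (adjusted p = 0.076). The second probe set of UBE2T ran from 5.76 over 6.24 to 6.90, correlated with the chosen one at r = 0.20 and rose by 0.056 ± 0.014 (adjusted p = 0.0094). It passed with number blocks (0.052, adjusted p = 0.048) and without the low-correlation arrays (0.051, adjusted p = 0.039), each on its own, but not with both (0.050, adjusted p = 0.074), in the lower number series (0.053, adjusted p = 0.055) or with 5 principal components (0.037, adjusted p = 0.399). Taking the probe set with the highest SD for each gene, 6 of 43 members were called, because these sets of USP10 and UBE2T then stand for their genes. The share of all genes called under that choice is not given here, so the count cannot be set beside it.

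Fat area showed less. At an adjusted p under 0.05, limma called 0 of the 43 members, beside 0.148% of all genes and 0.121% of all probe sets, and 3 members (6.98%) had an unadjusted p under 0.05, beside 7.94% of all genes. E2 enzymes had 12 positive and 12 negative slopes with a median of 0.0021, and deubiquitinases 10 and 9 with a median of 0.0084. The smallest p belonged to UBE2E3, a nuclear E2 enzyme close to the UBE2D group. Its chosen probe set, of the kind whose probes match more than 1 transcript, ran from 10.52 over 11.98 to 12.58. The mean was 11.88 ± 0.271 (SD, n = 52) in the bin with the least fat (8.1 to 12.7 cm2), then 11.93 and 11.96, and 12.05 ± 0.281 (SD, n = 50) in the bin with the most (17.1 to 26.7 cm2). The means were thus ordered by fat area, while the ranges overlapped. The slope was 0.064 ± 0.020 (SE) for each SD of fat area and was not called (limma adjusted p = 0.301).

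Both further probe sets of UBE2E3 had steeper slopes on fat area. The one that correlated with the chosen set at r = 0.948 rose by 0.091 ± 0.022 (limma adjusted p = 0.046), the only probe set of any member that passed for fat area, and the other, at r = 0.842, had 0.10 ± 0.026 (adjusted p = 0.070). With number blocks the first had 0.088 (adjusted p = 0.087), and without the low-correlation arrays 0.085 (adjusted p = 0.036), where the other passed too (0.10, adjusted p = 0.027). Fat area correlated with the first principal component of 6 Y-linked probe sets at r = 0.408 (rho = 0.454, both permutation p = 1e-05; 0.401 without the 2 most extreme animals; 0.462 and 0.091 within the series). The chosen UBE2E3 set correlated with that component at r = 0.278 (rho = 0.342; 0.279 without the 2 most extreme animals; 0.279 and 0.284 within the series, n = 207). With the component in the fit, the UBE2E3 slopes were 0.036 for the chosen set and 0.059 for the one that had passed (adjusted p = 0.983 for both), and 0 of all 23935 probe sets were called for fat area.

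UBE2W and USP30 were the other members with an unadjusted p under 0.05 for fat area. UBE2W ran from 4.75 over 5.84 to 6.46 and had a slope of 0.043 ± 0.019, and USP30 ran from 5.19 over 5.62 to 6.16 and had a slope of -0.027 ± 0.012 (limma adjusted p = 0.610 for both). UBE2F, USP36 and OTULIN came next, with slopes between 0.023 and 0.028 (adjusted p between 0.780 and 0.804). The members called for drip loss were not called for fat area, where their slopes were 0.023 for USP28, -0.00048 for UBE2M, -0.032 for UCHL1 and -0.0035 for USP5 (adjusted p between 0.914 and 0.999). UBE2A, OTUD5 and USP11, which lie on the X chromosome in the Sscrofa11.1 gene table, had slopes of 0.0059, -0.0034 and -0.00043.

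Whether a slope on drip loss differed from that on fat area was tested in a fit with both traits, over the animals that have both. Limma called 0 of 43 members, beside 0.591% of all genes and 0.347% of all probe sets, and 8 members (18.6%) had an unadjusted p under 0.05, beside 15.2% of all genes. The differences (drip loss minus fat area) were -0.12 ± 0.034 for USP28 (adjusted p = 0.078), 0.050 ± 0.016 for USP30 (adjusted p = 0.134), 0.15 ± 0.055 for UCHL1 (adjusted p = 0.196) and 0.053 ± 0.021 for UBE2M (adjusted p = 0.249). So a call for drip loss and none for fat area does not show for any member that the traits differ.

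The typical pair of members had an r near 0, with a lean to positive values among E2 enzymes. That lean was smaller after quantile normalization and beside genes with a mean above the median of all probe sets. Over the 207 animals the median of Pearson's r was 0.059 over 276 pairs of E2 enzymes, -0.018 over pairs of deubiquitinases and -0.0055 over 456 pairs with 1 of each, beside 0.0059 over all pairs of genes. Of the pairs of E2 enzymes 59.4% were positive, against 51.5% of all gene pairs. With the first 5 principal components removed the shares were 66.7% and 51.9%. Among genes with a mean above the median of all probe sets, 57.1% of E2 pairs and 53.1% of gene pairs were positive (median r 0.049 and 0.017). By permutation 47.8% of E2 pairs passed, against 53.2% of deubiquitinase pairs and 51.3% of pairs between the families. Of the E2 pairs that passed 89 were positive and 43 negative, a split that was not computed over all gene pairs. With quantile normalization 53.6% of E2 pairs were positive, against 50.8% of gene pairs, and their median r was 0.027. Within the lower and higher number series 60.5% and 54.3% were positive, against 51.6% and 51.7%. An absolute r over 0.5 was reached by 51 of 903 member pairs (5.65%; 23 among E2 enzymes, 6 among deubiquitinases and 22 between the families), against 1.69% of all gene pairs. Among genes with a mean above the median of all probe sets the shares were 6.97% and 2.98%. By permutation, 457 of the 903 pairs had an adjusted p under 0.05, the weakest of them at an absolute r of 0.156, which 35.3% of all gene pairs reached. The median absolute r was 0.158 over member pairs and 0.109 over all gene pairs. Among genes with a mean above the median the values were closer, at 0.172 and 0.146. These pairs share arrays, and their p-values are not independent. With the first 5 principal components removed, 4 pairs kept an absolute r over 0.5 (0.443%, against 0.0959% of gene pairs), and without the low-correlation arrays 22 did (2.44% against 0.788%).

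**Figure D4:**
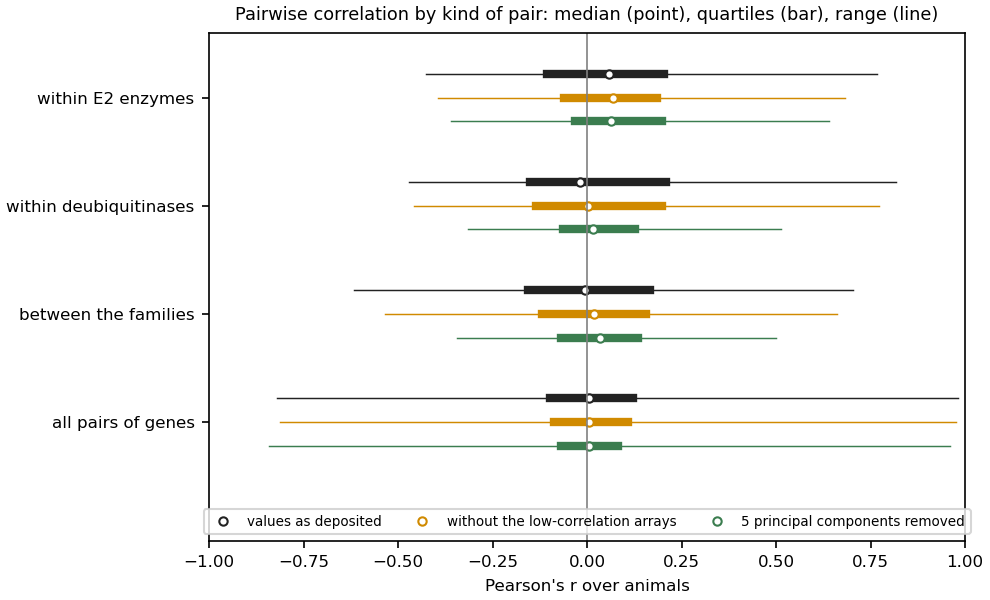
Pearson's r over animals for pairs of E2 enzymes, pairs of deubiquitinases, pairs with 1 of each and all pairs of genes: points are medians, thick bars the range between the lower and upper quartile and thin lines the full range, for the values as deposited, without the 24 low-correlation arrays and with 5 principal components removed. The medians lie near 0 throughout, from -0.018 to 0.068, and the ranges of member pairs shrink when components are removed.

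USP10 and USP2 were the most alike. Both stood high in the same animals, with r = 0.816 and rho = 0.762 (permutation p = 1e-05 for both, adjusted p = 5.1e-05 over 903 pairs for r), 0.811 without the 2 most extreme animals, 0.777 and 0.868 within the lower and higher number series and 0.772 without the low-correlation arrays. With 5 principal components removed r was 0.513, the highest among pairs of deubiquitinases. USP7 joined them, with r = 0.618 to USP10 and 0.556 to USP2, and so did 2 E2 enzymes, UBE2V1 (0.629 and 0.517) and UBE2R2, a partner of SCF ligases (0.639 and 0.501). Each of these genes also correlated with the 3' to 5' difference of the controls. That r was 0.378 for USP10, 0.363 for USP2, 0.390 for USP7, 0.410 for UBE2V1 and 0.449 for UBE2R2. The part of that difference in their co-variation was not tested. UBE2V1 and USP7 correlated at r = 0.696 (rho = 0.719, adjusted p = 5.1e-05; 0.690 without the 2 most extreme animals; 0.668 and 0.795 within the series; 0.397 with 5 components removed).

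The next most alike were the close relatives UBE2D2 and UBE2D3, with r = 0.766 and rho = 0.695 (permutation p = 1e-05, adjusted p = 5.1e-05; 0.764 without the 2 most extreme animals; 0.773 and 0.699 within the series; 0.640 with 5 components removed). Their sequences are near copies of each other, and the UBE2D3 probe set is of the kind whose probes match more than 1 transcript, so whether the sets measure separate transcripts was not tested. UBE2N also followed UBE2D2 (r = 0.678, and 0.617 with 5 components removed), as did UBE2W (0.609 and 0.501). UBE2A and UBE2B, relatives too, correlated at r = 0.725 (rho = 0.633, adjusted p = 5.1e-05; 0.728 without the 2 most extreme animals; 0.717 and 0.718 within the series), but at 0.179 with 5 components removed. UBE2V2 followed UBE2D3 (r = 0.721, rho = 0.673, adjusted p = 5.1e-05; 0.677 without the 2 most extreme animals; 0.730 and 0.634 within the series). It also followed the deubiquitinase USP24 (r = 0.703, rho = 0.648, adjusted p = 5.1e-05; 0.693 without the 2 most extreme animals; 0.703 and 0.669 within the series). With components removed these stood at 0.196 and 0.0092. Of the 3 pairs among UBE2N, UBE2V1 and UBE2V2, which work as complexes, UBE2N and UBE2V2 had the highest r (0.559).

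The strongest opposition ran between the RAD6 enzymes and the USP10 group. UBE2B correlated with USP10 at r = -0.618 (rho = -0.490) and with USP2 at r = -0.618 (rho = -0.518), UBE2A with USP2 at r = -0.547 (rho = -0.418), and UBE2D2 with USP11 at r = -0.515 (rho = -0.448), each with permutation p = 1e-05 and adjusted p = 5.1e-05. Without the 2 most extreme animals these were -0.613, -0.613, -0.543 and -0.467, and within the 2 series they lay between -0.674 and -0.501. Without the low-correlation arrays they were -0.535, -0.485, -0.401 and -0.327. With 5 components removed they were -0.170, -0.105, 0.206 and -0.243, so that the relation of UBE2A to USP2 changed sign.

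**Figure D5:**
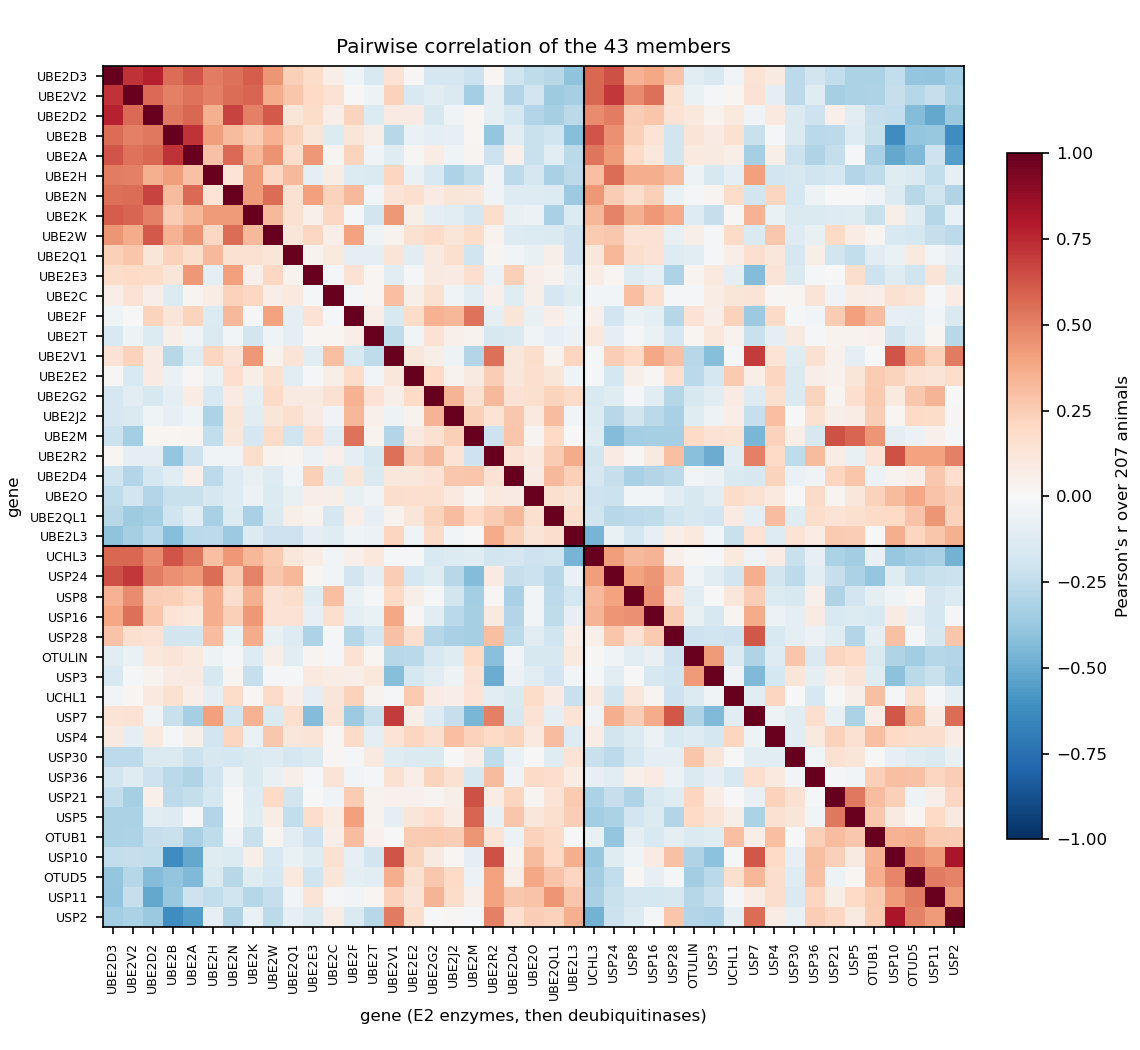
Pearson's r over 207 animals for all pairs of the 43 members, E2 enzymes first, each family ordered by loading on the members' first principal component (red positive, blue negative). The block from UBE2D3 to UBE2W and from UCHL3 to USP16 is red, the corner with USP10, OTUD5, USP11 and USP2 is also red (USP10 with USP2 at 0.816), and UBE2B with USP10 and with USP2 is the deepest blue, at -0.618 each.

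The first principal component of the members held 19.8% of their variance and the second 13.8%, where equal shares would give 2.33% each. It set UBE2D3, UBE2V2, UBE2D2, UBE2B, UBE2A, UCHL3 and USP24 against USP2, USP11, OTUD5 and USP10. Both families lay on both sides, with 12 E2 enzymes on each side and 8 deubiquitinases against 11. The component correlated with the first principal component of all probe sets at an absolute r of 0.735.

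The 4 members that passed for drip loss fell into different places of this pattern. UBE2M and USP5 ran together (r = 0.581, rho = 0.526, adjusted p = 5.1e-05; 0.538 without the 2 most extreme animals; 0.611 and 0.420 within the series), along with USP21 (r = 0.636 and 0.524). UBE2M, USP5 and USP21 also shared a negative correlation with the 3' to 5' difference (r = -0.534, -0.320 and -0.543). The part of that difference in their co-variation was not tested. USP28 opposed UBE2M (r = -0.334, adjusted p = 5.1e-05) and USP5 (r = -0.293, adjusted p = 0.00021), but the values were 0.049 and -0.0080 with 5 components removed. UCHL1 correlated weakly with UBE2M (r = 0.137, adjusted p = 0.085; rho = 0.194, adjusted p = 0.014) and with USP5 (r = 0.060, adjusted p = 0.472). Its relation to USP28 was weak (r = -0.205, rho = -0.198, adjusted p = 0.0082).

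Over all 6765 genes, those most like each of the 4 by Pearson's r were picked after the values had been seen, and are given as a description over 207 animals. For USP28 they were NRAP (r = 0.751), a scaffold of growing myofibrils, the BMP signal carrier SMAD1 (0.749), the heat shock factor HSF2 (0.745), CDV3 (0.735) and the chromatin protein KMT2E (0.727). For UBE2M they were TIMM50 (0.769), a part of the mitochondrial import machinery, STUB1 (0.760), the chaperone-linked E3 ligase CHIP, SPRYD4 (0.743), TIMM17B (0.743), also of mitochondrial import, and PHB2 (0.739). For USP5 they were DCAF7 (0.634), MLF2 (0.624), RTN2 (0.603), the glycolytic enzyme TPI1 (0.597) and UBE2M itself (0.581). UCHL1 had weaker neighbours, namely MLLT11 (0.529), LOC100523672 (0.485) and the proteasome subunits PSMA6 (0.468), PSMB4 (0.464) and PSMA1 (0.455). With 5 components removed, UCHL1 still correlated with MLLT11 at 0.549 and with PSMA6 at 0.470.

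Beyond the members, 52 genes from lists of the ubiquitin system were measured by a probe set with 1 symbol. For drip loss limma called 4 of them, all higher, beside 6.08% of all genes called and 3.96% called higher, so the share is near that of all genes. These were NEDD8 (0.073 ± 0.019, adjusted p = 0.013), the modifier that UBE2M carries, SUMO3 (0.062 ± 0.020, adjusted p = 0.042), the SUMO activating enzyme subunit SAE1 (0.032 ± 0.010, adjusted p = 0.047) and the E3 ligase STUB1 (0.054 ± 0.015, adjusted p = 0.023). By list, 2 of 7 ubiquitin and related modifiers were called (median slope 0.046), 1 of 4 E1 enzyme subunits (0.020) and 1 of 23 E3 ligases and cullin subunits (-0.0091). Among 12 other deubiquitinases, 3 SUMO proteases and 3 shuttle and extraction factors none was called (medians -0.0032, -0.028 and 0.0083), and 1, 0 and 0 had an unadjusted p under 0.05. The ubiquitin genes UBB and RPS27A had slopes of 0.00026 and 0.036 (adjusted p = 0.989 and 0.239). The muscle atrophy ligase FBXO32 had -0.088 ± 0.060 (adjusted p = 0.432). With number blocks, or without the low-correlation arrays, none of the 52 was called, and for fat area none was called and 1, among the other deubiquitinases, had an unadjusted p under 0.05.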

How the data were processed

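Muscle RNA of 207 pigs was labelled and hybridised to Affymetrix porcine arrays, 1 per animal. The authors deposited 1 log2 value for each probe set and animal, computed with GCOS 1.1.1 and PLIER, per the submitters' processing notes. The scaling between arrays is not given in the sources used here. Of 24123 probe sets, 188 controls were left out. The rest had 1 gene symbol (10069), several (198) or none (13668). The symbols are those of the array annotation, and 41 of 43 members were found in the Sscrofa11.1 gene table under the same symbol. USP28 and UBE2D3 were not found there, so their symbols rest on the array annotation alone. USP53 was left out because its probe sets also list LRFN5. The probe sets of UCHL5 list that same name 2 times and were read as having several symbols, so UCHL5 is not among the members.

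Slopes on each trait were fitted with limma 3.58.1 (R 4.3.3) with empirical Bayes variances. P-values are two-sided and Benjamini-Hochberg adjusted over all 23935 probe sets, called under 0.05. Correlations used 100000 permutations (Python 3.11.15, numpy 2.4.6, scipy 1.17.1, pandas 2.3.3). The code was tested on simulated data. Arrays counted as low in correlation when their median correlation with the others lay over 3 scaled median absolute deviations below that of all arrays. Alternatives were quantile normalization, dim probe sets left out, number blocks, each number series, low-correlation arrays left out, 5 principal components, normal scores, extreme animals left out, the 3' to 5' difference, the other trait, adipocyte markers, the Y-linked component for fat area, trend and robust variances and another probe set per gene. Blocks together with low-correlation arrays left out, the Y-linked component for drip loss, the 3' to 5' difference for fat area, low-correlation arrays left out for the difference between the traits adjustment over 1 probe set per gene and the number series for co-variation were added after seeing the data.

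Genes are named where called, where among the 3 smallest p-values of a family and trait, or as preset family members; pairs are the 6 with the highest and 4 with the lowest r. Other members, and the closest genes, were named after their values were seen. The members and lists were chosen with earlier results of these data known. No array pair held identical values (highest correlation 0.990). P-values measure the spread between these animals.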

Additional observations from a re-analysis of the deposited data

How the results depend on the processing

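For drip loss 4 members were called. With limma, 0 were called with number blocks (5 at an unadjusted p under 0.05), 0 without the low-correlation arrays (7), 0 with both (7), 0 with 5 principal components (5) and 0 in the higher number series alone (4). The count was 1 in the lower number series (beside 1.15% of all genes) and 2 with the 3' to 5' difference in the fit (beside 3.19%). USP28 had a slope of 0.0015 with 5 principal components, against -0.10 before. Over 17 alternatives UBE2M passed in 11 (slopes 0.024 to 0.062), UCHL1 in 11 (0.11 to 0.26), USP28 in 11 (-0.12 to 0.0015) and USP5 in 7 (0.020 to 0.045). Some of the 17 could not change these slopes. Each of the 4 genes has 1 probe set, so another probe set per gene fits the same values again. Dim probe sets left out, adjustment over 1 probe set per gene and trend and robust variances also keep the slope. The higher number series holds fewer animals; for the other settings the cause was not tested. Among the genes named by rule (15 for drip loss, 19 for fat area), slopes changed sign without a call in 15 values from 7 genes for drip loss and 21 values from 8 genes for fat area. Of all 43 members, 17 had opposite signs in the number series for drip loss and 22 for fat area. No paired analysis was possible because all animals form 1 group and no replicate numbers pair them.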
